A study of Mus musculus with 8 samples.

Results

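The proteasome genes were read from an RNA sequencing table of induced regulatory T cells (iTreg) that were sorted by neuropilin-1 (Nrp-1). Every row whose symbol begins with Psma to Psmg followed by a digit was taken, except the immunoproteasome genes Psmb8, Psmb9 and Psmb10 and pseudogenes, which gave 46 of the 23361 genes in the table. They comprised 8 genes of the 20S alpha ring, 8 of the beta ring, 6 ATPases and 11 non-ATPase subunits of the 19S particle, 3 chaperones of 19S assembly, 4 chaperones of 20S assembly, and 5 genes of other caps and an inhibitor. The last of the 46 genes, Psmc3ip, is taken in by the spelling of its symbol only. It encodes a factor of homologous recombination (HOP2) and not a proteasome subunit, and counts are therefore given with and without it.

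The proteasome degrades proteins that carry ubiquitin chains. Its 20S core is a barrel in which 2 outer alpha rings gate the entrance and 2 inner beta rings hold the cutting sites, and the 19S particle at its ends binds the chains, removes them, unfolds the substrate with its ATPases and threads it into the core. In lymphocytes and in cells exposed to interferon, the catalytic subunits encoded by Psmb8, Psmb9 and Psmb10 take the places of those encoded by Psmb5, Psmb6 and Psmb7, which changes the peptides that are made. T cells depend on the proteasome for activation signals, for cell division and for the turnover of transcription factors, Foxp3 among them.

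The 8 libraries were 4 of Nrp-1+ iTreg and 4 of Nrp-1- iTreg, and the comparison asks how far proteasome gene expression differs between the subsets. All came from wild-type (WT) mice with a Foxp3-RFP reporter allele, a red fluorescent tag of the Treg transcription factor. Naive CD4+ T cells were differentiated with CD3/CD28 antibody beads, IL-2 at 50 U/ml and TGF-β at 2 ng/ml for 3 days according to the culture protocol, while the time label of each sample reads day 5, and the sort kept live Foxp3-RFP+ cells before it separated Nrp-1+ from Nrp-1- cells. The subsets were thus parts of sorted cultures made in vitro, and neither group is a knockout. The labels number 4 biological replicates per subset without naming mice or cultures, so p-values measure the spread between these samples.

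Values are FPKM, that is fragments counted for a gene after division by its exon length and by the mapped fragments of its library, so they are levels per transcript length. Nrp1 itself, the sorted gene, was at 20.4 to 22.0 FPKM in the Nrp-1+ libraries and 4.70 to 5.31 FPKM in the Nrp-1- libraries. T cell and Treg markers summed to 2300 to 2356 FPKM in Nrp-1+ and 2324 to 2451 FPKM in Nrp-1- iTreg. Of these 8 genes 2 passed as higher and 3 as lower, beside 20.9% and 20.0% of all tested genes. Foxp3 (111.5 to 120.5 and 107.1 to 109.9 FPKM) and Il2ra (258.9 to 270.8 and 222.7 to 230.7 FPKM) were higher in Nrp-1+ without overlap. Cd3d (429.0 to 447.6 and 465.1 to 514.8 FPKM) and Ctla4 (139.8 to 146.6 and 155.6 to 161.7 FPKM) were lower without overlap. The part of these markers in the proteasome values was not tested. The B cell genes Ms4a1 and Pax5 and the myeloid genes S100a8 and S100a9 were listed at 0 in all libraries, and the summed B cell, myeloid, CD8 T and NK cell, and erythroid lists stayed under 12 FPKM in each library. Of these sums, those of the myeloid list (6.46 to 7.22 FPKM in Nrp-1+ and 5.41 to 6.24 FPKM in Nrp-1- iTreg, mostly Itgam), the CD8 T and NK cell list (7.12 to 8.82 and 9.44 to 11.3 FPKM, mostly Cd8b1) and the erythroid list (5.68 to 8.03 and 2.21 to 3.69 FPKM, mostly Hba-a1) did not overlap between the subsets, and their part in the proteasome values was not tested. Read totals are not given in the table, so the depth of the libraries is unknown, and comparison of low values placed the depth of the libraries between 0.810 and 1.24 relative to Nrp-1+ replicate 1. In bulk RNA of this kind, fewer cells of a type and less RNA per cell cannot be told apart.

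Of the 46 genes, 44 had a mean of at least 1 FPKM and were tested. Psma8, a testis alpha subunit, was listed at 0 in 7 libraries and at 0.0976 FPKM in Nrp-1+ replicate 2. Psmb11, the beta subunit of the thymoproteasome of cortical thymic epithelium, was between 0 and 0.0376 FPKM. The other genes were expressed in every library, with a median at the 88.6th percentile of the level of all tested genes. Mean levels ran from 8.99 FPKM for Psmd9 to 365.0 FPKM for Psme1 in Nrp-1+ iTreg, and from 5.76 FPKM for Psmc3ip to 390.9 FPKM for Psme1 in Nrp-1- iTreg. The 14 tested core genes had a median of 146.2 FPKM in Nrp-1+ and 144.3 FPKM in Nrp-1- iTreg, and the 17 genes of the 19S particle had medians of 76.2 and 76.9 FPKM. Within the core the level over all 8 libraries ran from 87.6 FPKM (Psma5) to 336.7 FPKM (Psmb1), a 3.84-fold range, and within the 19S particle from 33.5 FPKM (Psmd1) to 146.6 FPKM (Psmd8), a 4.38-fold range.

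Proteasome genes differed little between Nrp-1+ and Nrp-1- iTreg. With limma on log2(FPKM + 1) over all 10467 tested genes and Benjamini-Hochberg adjustment, 11 of the 44 (25.0%) passed an adjusted p of 0.05, where 40.9% of all tested genes did. Among the 11, 7 rose in Nrp-1+ iTreg (Psmc3ip, Psmd1, Psmg2, Psmc4, Psmc1, Psmb7 and Psmc3) and 4 fell (Psmg4, Psme2, Psmb1 and Psme1), beside 20.9% and 20.0% of all tested genes. Leaving out Psmc3ip, 10 of 43 passed (23.3%), 6 of them higher, and every difference between the group means lay between -14.0% and 13.6%. The values of the 2 subsets did not overlap for 11 genes, 6 higher and 5 lower, beside 39.5% of all tested genes. A log2 fold change of 0.2 or more in either direction was reached by 2 genes (4.55%), Psmc3ip and Psmg4, and by 27.9% of all tested genes.

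The precision was sufficient to bound most of these differences. The 95% interval of the log2 fold change lay within -0.25 and 0.25 for 39 of the 44 genes (88.6%), and for 53.5% of all tested genes. The median standard deviation within groups was 0.0518 on the log2(FPKM + 1) scale, against 0.0659 over all tested genes. By their fitted fold change 24 genes stood above 0 and 20 below it, with a median of 0.0031 on the log2 scale beside -0.02 over all tested genes. The test does not show that a gene that failed it was the same in both subsets.

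**Figure D1:**
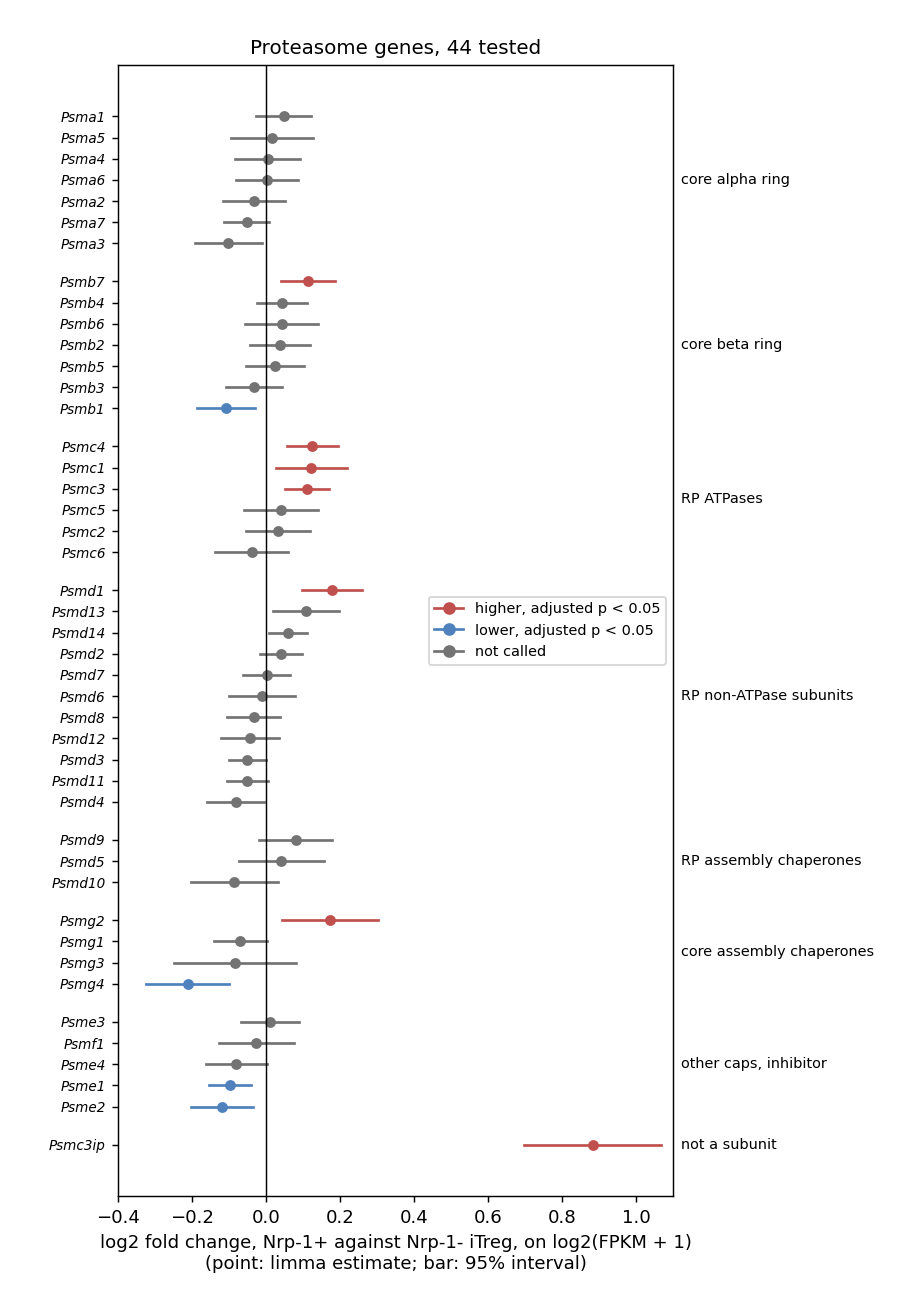
Log2 fold change of the 44 tested proteasome genes, Nrp-1+ against Nrp-1- iTreg, on log2(FPKM + 1), with the limma estimate as a point and its 95% interval as a bar, grouped by place in the complex (core, the 20S core; RP, the 19S regulatory particle). Psmc3ip stands at 0.88 and the other 43 points lie between -0.21 and 0.18.

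The number of calls differed between the scalings tried. With median-of-ratios size factors 8 genes were higher and 4 lower, and all 11 passed again. After quantile normalization, which makes the distribution of values the same in every library, 2 genes were higher and 2 lower, and only Psmc3ip, Psmd1 and Psmg4 of the 11 passed again. The other 8 kept their direction there, for example Psmb1 at -0.105 and Psmc4 at 0.12 on the log2 scale, and the smallest, Psme1, at -0.07. With 1 library left out, 4 to 7 genes were higher and 2 to 5 lower. The fewest were higher without Nrp-1+ replicate 3 (4) and without Nrp-1- replicate 1 (4). The fewest were lower without Nrp-1- replicate 3 (2) and without Nrp-1- replicate 4 (2). Psmc3ip, Psmd1 and Psmg4 passed under all 19 alternatives tried.

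The distribution of the fold changes was narrow and centred near 0. As a comparison within the same libraries, a list of 25 proliferation genes, which holds cyclins, mitotic kinases and replication factors, was higher in Nrp-1+ iTreg throughout, with 25 of 25 genes passing and log2 fold changes from 0.70 to 1.00. The summed level of that list was 3072 to 3148 FPKM in Nrp-1+ and 1689 to 1716 FPKM in Nrp-1- iTreg. The summed level of all 46 proteasome genes was 4620 to 4761 FPKM in Nrp-1+ and 4563 to 4858 FPKM in Nrp-1- iTreg, so the groups overlapped and the means differed by -1.14%. No test was made of the difference between these lists, and the part of proliferation in the proteasome values was not tested.

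**Figure D2:**
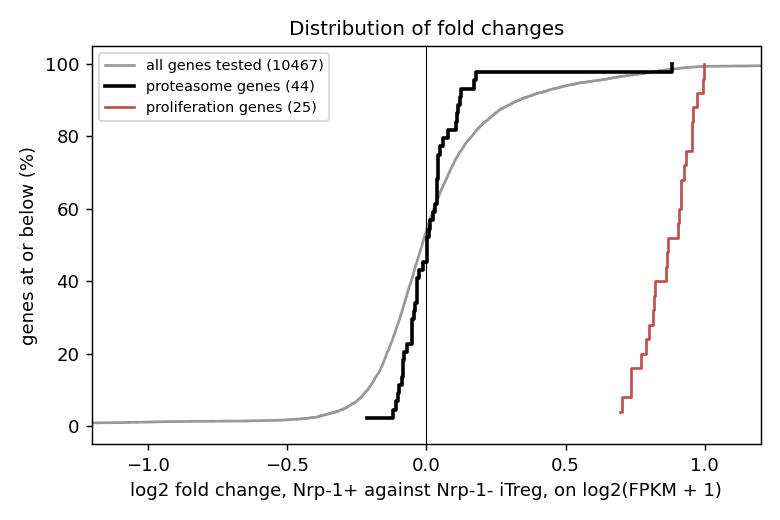
Cumulative share of genes (y axis, percent) at or below each log2 fold change (x axis, Nrp-1+ against Nrp-1- iTreg on log2(FPKM + 1)) for 10467 tested genes, 44 proteasome genes and 25 proliferation genes. The proteasome curve rises steeply around 0 with Psmc3ip alone at 0.88, and the proliferation curve lies between 0.70 and 1.00.

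Psmc3ip carried the largest difference. The gene lies at chr11:101091823-101095436 on the minus strand (GRCm38) and its protein partners with the recombinases of DNA strand exchange, which is best known from meiosis. It was at 11.8, 11.7, 11.1 and 11.1 FPKM in Nrp-1+ replicates 1 to 4 and at 5.73, 5.86, 6.72 and 4.74 FPKM in Nrp-1- replicates 1 to 4. All Nrp-1+ libraries lay above all Nrp-1- libraries. The means were 11.4 ± 0.370 and 5.76 ± 0.809 FPKM (SD, n = 4 each), a difference of 97.7%, and the log2 fold change was 0.88 (95% interval 0.70 to 1.07; limma, adjusted p = 7e-05). Its fold change was thus within the range of the proliferation list given above, and outside the range of the 43 other proteasome genes. Of its annotated exon bases, 21.2% overlap Mlx on the opposite strand, and reads from that stretch can be told from those of Mlx only where strand was used. Mlx, a transcription factor of glucose sensing, was at 34.2 to 34.7 FPKM in Nrp-1+ and 36.6 to 39.2 FPKM in Nrp-1- iTreg. It passed as lower, with a log2 fold change of -0.13 (limma, adjusted p = 0.00501). The part of reads from the shared stretch in the values of Psmc3ip was not tested.

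The 180 bases upstream of the Psmc3ip start (RefSeq, GRCm38.p6, chr11:101095436-101095615, minus strand, 5′ to 3′) are shown because this is the gene of the set that changed most, and the capitals mark a CCAAT box, the motif of the factor NF-Y.
Psmc3ip: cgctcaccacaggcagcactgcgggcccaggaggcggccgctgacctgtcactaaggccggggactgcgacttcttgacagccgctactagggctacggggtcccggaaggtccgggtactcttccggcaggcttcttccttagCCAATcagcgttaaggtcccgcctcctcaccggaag

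No gene of the alpha ring passed the limma test, beside 40.9% of all tested genes, and 1 of the 7, Psma3, had an unadjusted p under 0.05. The 7 tested genes, Psma1 to Psma7, form the gate of the barrel and the surface on which the caps dock. Their log2 fold changes ran from -0.10 (Psma3) to 0.05 (Psma1), with a median of 0.0027, 4 above and 3 below 0, and all 7 intervals lay within -0.25 and 0.25. Psma3 was nearest to the threshold at 87.4, 90.6, 93.8 and 82.5 FPKM in Nrp-1+ and 91.9, 96.5, 95.9 and 96.0 FPKM in Nrp-1- iTreg. Its ranges overlapped, and the log2 fold change of -0.10 (95% interval -0.19 to -0.01) had an adjusted p of 0.0694. Psma3 passed without Nrp-1+ replicate 3 (adjusted p = 0.0294). The directions of Psma4, Psma5 and Psma6, each within 0.02 of 0 on the log2 scale, turned in some alternatives.

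In the beta ring 1 gene rose and 1 fell among 7 tested (28.6%), beside 40.9% of all tested genes. Psmb7 (chr2:38588036-38644087, minus strand) encodes the subunit with trypsin-like activity. It was at 138.7, 139.9, 147.0 and 137.7 FPKM in Nrp-1+ and 127.5, 125.3, 133.4 and 134.6 FPKM in Nrp-1- iTreg, without overlap. It rose by 8.17% (log2 fold change 0.11, 95% interval 0.04 to 0.19, adjusted p = 0.0222). Psmb1, a structural beta subunit at chr17:15475021-15499751 on the minus strand, was at 329.7, 332.2, 324.7 and 308.9 FPKM in Nrp-1+ and 333.2, 346.8, 356.6 and 361.5 FPKM in Nrp-1- iTreg. All its Nrp-1+ values were below all Nrp-1- values, and it was lower by a log2 fold change of -0.11 (95% interval -0.19 to -0.03, adjusted p = 0.0322). Neither call was kept after quantile normalization (adjusted p = 0.257 for Psmb7 and 0.497 for Psmb1). Psmb7 did not pass without Nrp-1+ replicate 3 (0.0529), Nrp-1- replicate 1 (0.0539) or Nrp-1- replicate 2 (0.0547), and Psmb1 did not pass without Nrp-1+ replicate 3 (0.0666) or 4 (0.0640) or Nrp-1- replicate 2 (0.0590), 3 (0.0806) or 4 (0.0809). Of the exon bases of Psmb7, 11.8% overlap Nek6 on the opposite strand, a kinase gene at 0.695 to 0.916 FPKM in Nrp-1+ and 0.314 to 0.559 FPKM in Nrp-1- iTreg.

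The other 2 constitutive catalytic subunits gave no call. Psmb5 (chr14:54614119-54618022, minus strand), the chymotrypsin-like subunit and the main target of proteasome inhibitor drugs, was at 122.9, 117.3, 120.4 and 123.0 FPKM in Nrp-1+ and 116.0, 113.3, 121.2 and 125.4 FPKM in Nrp-1- iTreg. Psmb6 (chr11:70525367-70527858, plus strand), the caspase-like subunit, was at 91.8, 85.3, 93.9 and 91.6 FPKM in Nrp-1+ and 83.0, 85.6, 91.7 and 91.9 FPKM in Nrp-1- iTreg. In both genes the groups overlapped. The log2 fold change was 0.02 for Psmb5 (95% interval -0.06 to 0.10, adjusted p = 0.621) and 0.04 for Psmb6 (95% interval -0.06 to 0.14, adjusted p = 0.471). Processed pseudogenes of Psmb5, Psmb6 and Psmb7 are annotated, and how reads shared with them were counted is not given, so these levels are uncertain to that extent. Psmb2, Psmb3 and Psmb4 had log2 fold changes of 0.04, -0.03 and 0.04 and did not pass.

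The immunoproteasome counterparts, which are not among the 46 genes, were at higher levels than Psmb5 and Psmb6 and at a lower level than Psmb7. Psmb8, the counterpart of Psmb5, was at 440.7, 411.3, 423.9 and 425.2 FPKM in Nrp-1+ and 402.5, 407.2, 414.3 and 420.5 FPKM in Nrp-1- iTreg. Psmb9, the counterpart of Psmb6, was at 224.6, 217.4, 231.1 and 228.1 FPKM in Nrp-1+ and 197.3, 220.3, 210.0 and 214.7 FPKM in Nrp-1- iTreg. Both groups of values overlapped, and neither gene passed (log2 fold change 0.05 and 0.10, adjusted p = 0.182 and 0.0640). Psmb9 passed as higher without Nrp-1- replicate 2 (adjusted p = 0.0380). Psmb10, the counterpart of Psmb7, was at 103.2, 98.0, 101.6 and 104.9 FPKM in Nrp-1+ and 104.2, 110.5, 111.7 and 108.7 FPKM in Nrp-1- iTreg, with overlap. It passed with a log2 fold change of -0.09 (95% interval -0.16 to -0.02, adjusted p = 0.0373), opposite in sign to that of Psmb7. That call ended after quantile normalization (adjusted p = 0.149), with no trend (0.0534) and when any library but Nrp-1+ replicate 4 or Nrp-1- replicate 1 was left out (0.0575 to 0.0910).

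Ratios within a library do not depend on scaling between libraries. The ratio of Psmb8 to Psmb5 was 3.52 ± 0.0529 in Nrp-1+ and 3.46 ± 0.102 in Nrp-1- iTreg (exact two-sided permutation test, p = 0.343, adjusted over 3 ratios 0.343). For Psmb9 to Psmb6 it was 2.49 ± 0.0458 and 2.39 ± 0.124 (exact p = 0.2, adjusted 0.3). The ratio of Psmb10 to Psmb7 was 0.744, 0.701, 0.691 and 0.762 in Nrp-1+ and 0.818, 0.881, 0.838 and 0.808 in Nrp-1- iTreg. These values did not overlap, and the mean was lower in Nrp-1+ iTreg by 0.21 on the log2 scale. The exact p of 0.0286 is the smallest that 4 against 4 libraries allow and became 0.0857 after adjustment over the 3 ratios. A single ratio of the 3 cannot fall below that adjusted value at this number of libraries, so the adjusted p says nothing about the difference.

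**Figure D3:**
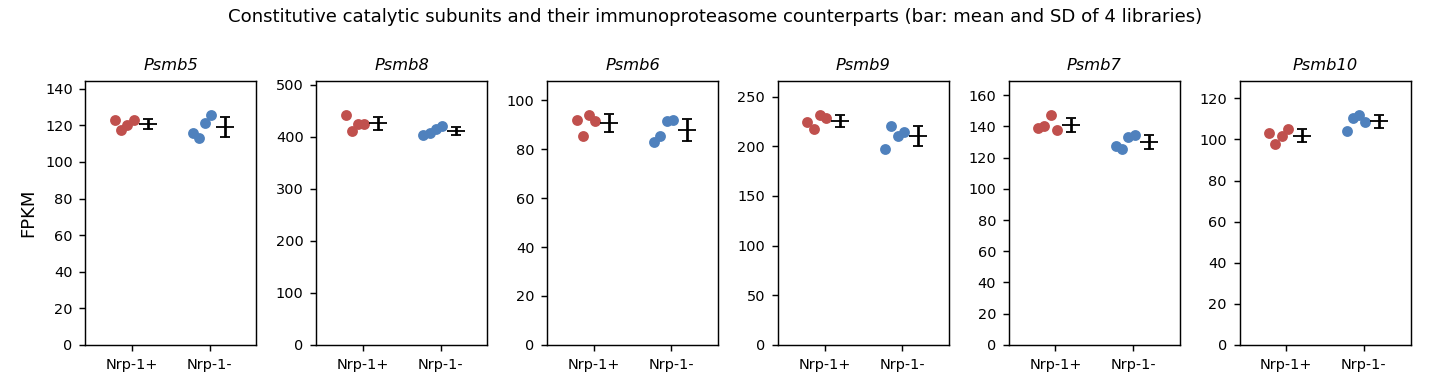
FPKM of the constitutive catalytic subunits Psmb5, Psmb6 and Psmb7, each followed by its immunoproteasome counterpart, in the 4 Nrp-1+ and 4 Nrp-1- libraries (points, replicates 1 to 4 from left to right), with mean and SD as bars. Psmb7 is higher in all Nrp-1+ libraries, from 137.7 FPKM, than in any Nrp-1- library, up to 134.6 FPKM, while the other 5 genes overlap.

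Of the 19S particle, Psmc1 to Psmc6 encode the AAA-ATPases that open the gate and unfold the substrate, and 3 of the 6 rose and none fell, beside 20.9% and 20.0% of all tested genes. With 6 genes this count is a description, and all 3 calls ended under quantile normalization. Psmc4 (chr7:28041707-28050101, minus strand) was at 84.3, 80.8, 86.8 and 83.6 FPKM in Nrp-1+ and 73.8, 76.4, 78.1 and 79.1 FPKM in Nrp-1- iTreg. Every Nrp-1+ value lay above every Nrp-1- value. The log2 fold change was 0.12 (95% interval 0.05 to 0.19, adjusted p = 0.0116), a rise of 9.07%. Psmc3 was at 117.9, 117.8, 116.5 and 123.9 FPKM in Nrp-1+ and 108.1, 108.4, 111.6 and 112.6 FPKM in Nrp-1- iTreg, and Psmc1 at 98.0 to 107.4 FPKM and 88.2 to 97.7 FPKM. Both rose without overlap, with log2 fold changes of 0.11 (adjusted p = 0.00994) and 0.12 (adjusted p = 0.0477). Psmc2, Psmc5 and Psmc6 overlapped between groups at log2 fold changes of 0.03, 0.04 and -0.04. The summed level of the 6 genes was 508.2 to 533.2 FPKM in Nrp-1+ and 473.2 to 505.4 FPKM in Nrp-1- iTreg, a difference of 5.16% with no overlap.

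Under quantile normalization the ATPases did not pass (adjusted p = 0.109 for Psmc4, 0.0902 for Psmc3 and 0.328 for Psmc1), with unchanged direction. Psmc1 did not pass with no filter (0.0706) or no trend (0.0610), nor without Nrp-1+ replicate 1 (0.112) or 3 (0.112) or Nrp-1- replicate 1 (0.0985), 2 (0.0705) or 3 (0.0897), whereas Psmc3 and Psmc4 passed whichever library was left out. For Psmc3, 8.25% of exon bases overlap Slc39a13 on the opposite strand, a zinc transporter gene at 3.43 to 5.13 FPKM over the 8 libraries.

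Among the 11 non-ATPase subunits only Psmd1 passed (9.09%), beside 40.9% of all tested genes. Psmd1 (chr1:86064387-86139151, plus strand) encodes a large scaffold subunit of the base, on which receptors and cofactors dock. It was at 37.1, 36.1, 35.7 and 33.5 FPKM in Nrp-1+ and 31.6, 30.1, 31.6 and 32.0 FPKM in Nrp-1- iTreg, without overlap, and had the lowest level of the 17 subunits. Its exon bases overlap Htr2b on the opposite strand (3.47%) and Gm21972 on its own strand (4.14%). It rose by 13.6% (log2 fold change 0.18, 95% interval 0.10 to 0.26, adjusted p = 0.00436). The median of the 11 genes was -0.01, with 5 above and 6 below 0, and 10 of 11 intervals lay within -0.25 and 0.25.

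Psmd14, the metalloprotease that removes ubiquitin chains from the substrate, was at 80.6, 81.1, 80.2 and 78.4 FPKM in Nrp-1+ and 77.2, 75.7, 79.2 and 75.6 FPKM in Nrp-1- iTreg. The groups overlapped in Nrp-1+ replicate 4 and Nrp-1- replicate 3, and with a log2 fold change of 0.06 (95% interval 0.01 to 0.11) it had an adjusted p of 0.0659. It passed with median-of-ratios size factors (0.0474), with array weights (0.0496), and without Nrp-1+ replicate 4 (0.0443) or Nrp-1- replicate 3 (0.0335). Psmd13 stood similarly near the threshold (log2 fold change 0.11, adjusted p = 0.0589) and passed with array weights (0.0481) and without Nrp-1- replicate 4 (0.0149). Of the ubiquitin receptors of the particle, Psmd4 had a log2 fold change of -0.08 (adjusted p = 0.0785) and Psmd2, the other scaffold of the base, 0.04 (adjusted p = 0.246). The lid subunits Psmd3, Psmd6, Psmd7, Psmd8, Psmd11 and Psmd12 had log2 fold changes between -0.05 and 0.0007, and none passed. Psmd11 was lower without overlap, at 42.0 to 43.1 FPKM in Nrp-1+ and 43.2 to 45.9 FPKM in Nrp-1- iTreg (adjusted p = 0.120).

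**Figure D4:**
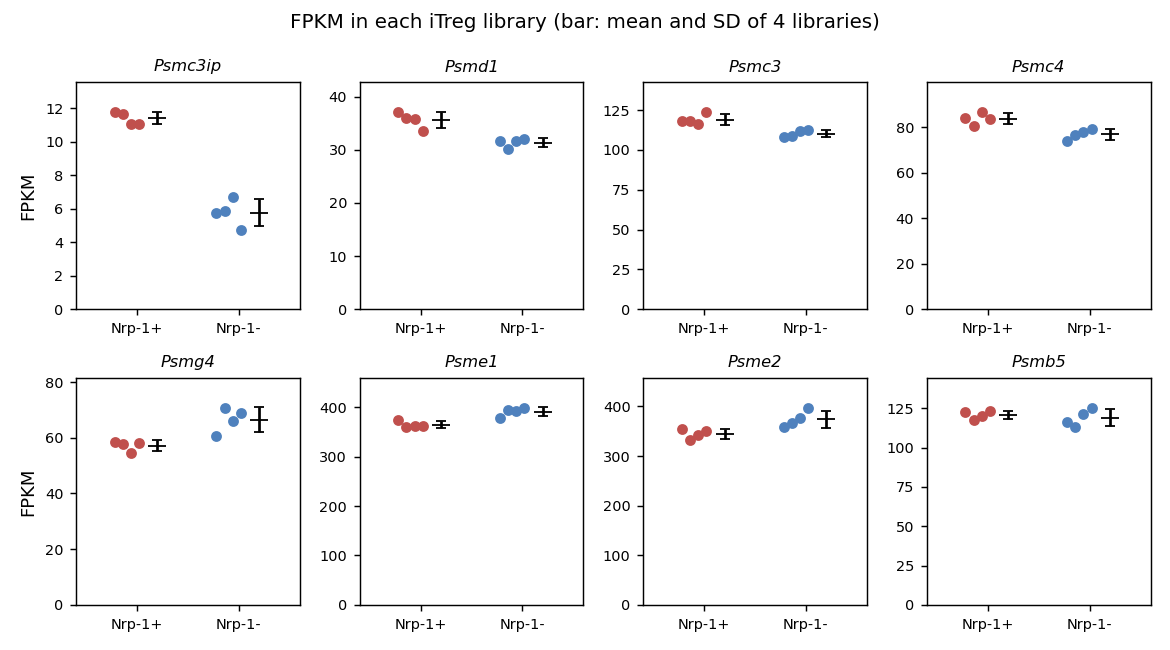
FPKM in each of the 4 Nrp-1+ and 4 Nrp-1- libraries (points, replicates 1 to 4 from left to right) for 8 proteasome genes, with mean and SD as bars and every y axis starting at 0. Psmc3ip is about 2 times as high in Nrp-1+ iTreg, the other 6 genes that passed differ by 14.0% or less, and Psmb5 overlaps.

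Of the 4 assembly chaperones of the core 1 rose, 1 fell and 2 did not pass (50.0% called), beside 40.9% of all tested genes. Psmg1 with Psmg2, and Psmg3 with Psmg4, form the pairs that guide building of the alpha ring and leave or are degraded when the core is complete. Psmg4 (chr13:34162964-34178173, plus strand) was at 58.6, 57.8, 54.5 and 58.0 FPKM in Nrp-1+ and 60.5, 70.8, 66.0 and 68.9 FPKM in Nrp-1- iTreg. No Nrp-1+ value reached the lowest Nrp-1- value, of replicate 1. It fell by 14.0%, the largest decrease of the set (log2 fold change -0.21, 95% interval -0.33 to -0.10, adjusted p = 0.00916). Psmg2 was at 25.8, 22.8, 25.7 and 23.8 FPKM in Nrp-1+ and 21.4, 23.1, 22.3 and 19.8 FPKM in Nrp-1- iTreg. Its groups overlapped, since Nrp-1+ replicate 2 was below Nrp-1- replicate 2. It passed as higher (log2 fold change 0.17, 95% interval 0.04 to 0.30, adjusted p = 0.0414).

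The call of Psmg2 was among the least stable of the set. It did not pass after quantile normalization (0.0846), without the filter on low genes (0.0661), or without Nrp-1+ replicate 1 (0.101), 3 (0.103) or 4 (0.0613) or Nrp-1- replicate 1 (0.0871), 3 (0.0599) or 4 (0.0885). Psmg1 and Psmg3 had log2 fold changes of -0.07 (adjusted p = 0.110) and -0.08 (adjusted p = 0.384), so within neither pair did both chaperones pass. The 19S chaperones Psmd5, Psmd9 and Psmd10, which act in the building of the base, had log2 fold changes of 0.04, 0.08 and -0.09. Of these, 0 of 3 passed limma or had an unadjusted p under 0.05, beside 40.9% of all tested genes that passed. Psmd10, also known as gankyrin, passed as lower without Nrp-1- replicate 1 (adjusted p = 0.00392).

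Of the 5 genes of the other caps and the inhibitor 2 fell and none rose, beside 20.0% and 20.9% of all tested genes. Psme1 (chr14:55578123-55581529, plus strand) and Psme2 (chr14:55587441-55591113, minus strand) lie 5911 bases apart and encode the alpha and beta subunits of the 11S activator PA28, an interferon-induced cap that opens the core without ATP and is linked to the making of antigenic peptides. Psme1 was at 374.8, 360.3, 361.7 and 363.2 FPKM in Nrp-1+ and 377.8, 394.0, 392.1 and 399.4 FPKM in Nrp-1- iTreg. Psme2 was at 353.8, 331.9, 343.4 and 350.0 FPKM in Nrp-1+ and 357.9, 366.5, 376.8 and 397.7 FPKM in Nrp-1- iTreg. In both genes all Nrp-1+ libraries were below all Nrp-1- libraries, with Nrp-1+ replicate 1 and Nrp-1- replicate 1 closest to each other. Psme1 was lower by a log2 fold change of -0.10 (95% interval -0.15 to -0.04, adjusted p = 0.0131) and Psme2 by -0.12 (95% interval -0.20 to -0.03, adjusted p = 0.0314). After quantile normalization neither passed (adjusted p = 0.602 and 0.530). Psme1 passed whichever library was left out, and Psme2 did not pass without Nrp-1+ replicate 2 (0.0782) or 3 (0.0709) or Nrp-1- replicate 3 (0.0706) or 4 (0.0579).

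Psme3, Psme4 and Psmf1 gave no call. Psme3, which forms the nuclear PA28 gamma cap, was at 50.0, 51.7, 52.1 and 55.7 FPKM in Nrp-1+ and 51.5, 53.4, 51.0 and 52.1 FPKM in Nrp-1- iTreg. Psme4, the PA200 cap known for histone turnover, was at 19.5, 18.4, 17.5 and 17.6 FPKM in Nrp-1+ and 19.7, 19.5, 19.2 and 19.0 FPKM in Nrp-1- iTreg. Psmf1, an inhibitor of the core (PI31), was at 14.1, 14.3, 14.5 and 14.6 FPKM in Nrp-1+ and 14.5, 15.9, 15.0 and 13.5 FPKM in Nrp-1- iTreg. The groups overlapped in all 3 genes, in Psme4 through Nrp-1+ replicate 1 only. Their log2 fold changes were 0.01 (95% interval -0.07 to 0.09), -0.08 (-0.16 to 0.0017) and -0.03 (-0.13 to 0.07), with adjusted p of 0.858, 0.108 and 0.648. Psme4 passed as lower without Nrp-1+ replicate 1 (adjusted p = 0.0187), and Psme3 and Psmf1 changed sign in some alternatives.

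Summed levels placed the differences side by side. The caps and the inhibitor together were at 776.6 to 812.3 FPKM in Nrp-1+ and 821.3 to 881.8 FPKM in Nrp-1- iTreg, a difference of -6.67% with no overlap, and Psme1 and Psme2 make up most of that sum. The 20S chaperones were at 129.9 to 136.1 and 134.0 to 150.3 FPKM, with overlap. The alpha ring (964.1 to 1018 and 973.9 to 1040 FPKM), the beta ring (1309 to 1352 and 1279 to 1374 FPKM) and the non-ATPase subunits (830.3 to 841.1 and 817.5 to 856.4 FPKM) overlapped, with differences of -1.30%, -0.373% and -0.0812%. These sums are descriptions and were not tested.

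**Figure D5:**
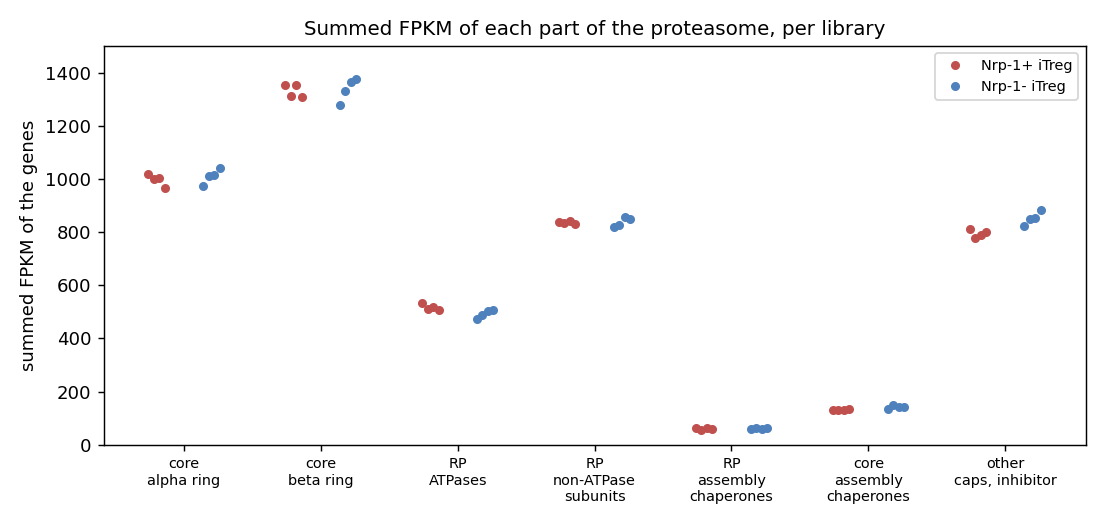
Summed FPKM (y axis, from 0) of the genes of each part of the proteasome in the 4 Nrp-1+ and 4 Nrp-1- libraries (points, replicates 1 to 4 from left to right; core, the 20S core; RP, the 19S regulatory particle). The ATPases (508.2 to 533.2 against 473.2 to 505.4) and the caps with the inhibitor (776.6 to 812.3 against 821.3 to 881.8) are the sums without overlap, in opposite directions, and the core rings overlap.

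Genes that work with the proteasome were read from a separate list of ubiquitin, shuttle, assembly and control genes. Of 31 found and tested, 4 rose, 5 fell and 22 did not pass, which is 29.0% called and below the 40.9% of all tested genes. Uchl5, a deubiquitinase bound to the 19S particle, was at 25.6, 25.6, 25.6 and 25.0 FPKM in Nrp-1+ and 20.2, 19.7, 20.4 and 19.5 FPKM in Nrp-1- iTreg. Its groups were far apart relative to their spread, with a log2 fold change of 0.34 (95% interval 0.29 to 0.39, adjusted p = 1.1e-05), larger than that of any subunit gene. Txnl1, a thioredoxin-like protein of the 19S particle, was at 39.6, 37.3, 37.8 and 37.4 FPKM in Nrp-1+ and 34.6, 34.2, 33.3 and 33.4 FPKM in Nrp-1- iTreg, without overlap (log2 fold change 0.16, adjusted p = 0.00139), and Usp14, the other deubiquitinase bound there, had a log2 fold change of 0.12 (adjusted p = 0.0470). Usp14 did not pass with no filter (0.0732), after quantile normalization (0.0830), with no trend (0.0520), or without Nrp-1+ replicate 1 (0.111), 2 (0.0914), 3 (0.0610) or 4 (0.0651) or Nrp-1- replicate 2 (0.107) or 3 (0.104). Uba6, which activates ubiquitin and the ubiquitin-like FAT10, was low, at 4.40, 4.95, 4.70 and 4.10 FPKM in Nrp-1+ and 4.14, 3.97, 3.34 and 3.51 FPKM in Nrp-1- iTreg, and its groups overlapped (log2 fold change 0.22, adjusted p = 0.0360). Pomp, the maturation factor of the core, and Adrm1, a ubiquitin receptor of the 19S particle, had log2 fold changes of -0.09 (adjusted p = 0.0580) and -0.05 (adjusted p = 0.217).

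Nfe2l2, the antioxidant factor NRF2, was at 32.6, 34.5, 32.4 and 30.1 FPKM in Nrp-1+ and 37.5, 38.9, 37.4 and 35.7 FPKM in Nrp-1- iTreg. It fell without overlap, with a log2 fold change of -0.20 (adjusted p = 0.00608). Ngly1, the deglycosylase that acts on the related factor NRF1 in its activation, was at 28.9, 28.8, 28.5 and 27.3 FPKM in Nrp-1+ and 32.3, 30.4, 32.8 and 32.5 FPKM in Nrp-1- iTreg, without overlap (log2 fold change -0.17, adjusted p = 0.00328). Nfe2l1 itself, which encodes NRF1, the factor known to raise proteasome genes when the proteasome is inhibited, is named here after its values were seen. It was at 21.8 to 22.2 and 21.9 to 23.3 FPKM, with a log2 fold change of -0.03 (95% interval -0.08 to 0.03, adjusted p = 0.432). Rps27a, which encodes ubiquitin joined to a ribosomal protein, was at 2719, 2627, 2647 and 2493 FPKM in Nrp-1+ and 2804, 2884, 3019 and 3130.5 FPKM in Nrp-1- iTreg. Its groups did not overlap, and it fell with a log2 fold change of -0.17 (adjusted p = 0.0140), and the polyubiquitin gene Ubb had 0.09 (adjusted p = 0.0827). Rps27a has many near copies, so its level is uncertain. Rps27a did not pass after quantile normalization (adjusted p = 0.805). Neither did Uba6 (0.0558), which also did not pass with no filter (0.0634), nor without Nrp-1+ replicate 1 (0.0594), 2 (0.0886) or 3 (0.0854) or Nrp-1- replicate 3 (0.0841) or 4 (0.0877). Without Nrp-1+ replicate 1, 2 or 3 the number of these partner genes that were higher was 2 in each case.

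The promoters of the proteasome genes were searched for motifs in the 250 bases upstream of each start (RefSeq, GRCm38.p6), on both strands, and 38 of the 46 genes had an entry. TGACNNNGC, the core of the antioxidant response element that NRF1 and NRF2 bind, was found in 5 of the 38 (13.16%: Psmb5, Psmb6, Psmc6, Psmd9 and Psmd12) and in 11.52% of 27025 genes. CCAAT was found in 14 of the 38 (36.84%) and in 37.49% of all genes. TTTGAA, the core of the cell cycle element CHR, was found in 2 of the 38 (5.26%) and in 18.26% of all genes. None of the 5 genes with TGACNNNGC passed the test between subsets, beside 40.9% of all tested genes. Of the 11 genes that passed, Psmb1, Psmb7, Psmc3 and Psmg2 had no promoter entry and could not be searched, so nothing is read from that count. Stretches of 180 bases with that match are shown for catalytic subunit genes that overlapped between the subsets, Psmb5 (chr14:54617996-54618175, minus strand) and Psmb6 (chr11:70525177-70525356, plus strand), 5′ to 3′ with the match in capitals.
Psmb5: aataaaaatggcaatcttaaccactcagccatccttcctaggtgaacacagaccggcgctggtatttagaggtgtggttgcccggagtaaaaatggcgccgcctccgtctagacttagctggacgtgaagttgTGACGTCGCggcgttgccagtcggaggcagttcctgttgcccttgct
Psmb6: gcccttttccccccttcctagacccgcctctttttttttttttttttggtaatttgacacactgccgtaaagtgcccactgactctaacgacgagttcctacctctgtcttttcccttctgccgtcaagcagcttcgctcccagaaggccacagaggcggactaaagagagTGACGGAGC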

How the data were processed

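The authors sequenced poly(A) RNA of iTreg sorted into 4 Nrp-1+ and 4 Nrp-1- libraries, used the CLC Genomics Workbench for the reads and Cufflinks for FPKM, and deposited a table of FPKM with 1 row for each gene symbol. The submitters' processing notes name the build GRCm38 (mm10). The paper describes a directional kit and the labels a SMARTER kit, and whether counting used strand is not given in the sources used here. No count was available, so no count model was used.

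Genes with a mean of at least 1 FPKM (10467 of 23361; 7072 were at 0 throughout) were tested on log2(FPKM + 1), a scale that understates changes of low genes, with limma 3.58.1 (eBayes with trend, R 4.3.3) and Benjamini-Hochberg adjustment over all tested genes. A gene passed at an adjusted p under 0.05. Percentages compare group mean FPKM. Ratios of 2 genes were compared with exact two-sided permutation tests (scipy 1.17.1, Python 3.11.15). The fit was tested on simulated data.

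Positions and exon overlaps are from GENCODE M21, promoter sequences from RefSeq. Full values are given for catalytic subunits, Psmd14, caps, Psmc3ip, the 4 called members with the largest fold change each way, and the 3 such partner genes each way; further genes were added after their values were seen. The members and lists were chosen with earlier results of these data known. The proteasome set was not tested as a set. Some partner genes are counted but not reported by name here.

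As alternatives the fit was repeated with pseudocounts of 0.1 and 0.5, with no filter or a filter at 5 FPKM, after quantile normalization or scaling by median-of-ratios size factors, with a block for replicate number, with array weights, with no trend in eBayes, and with each library left out. Added after the data were seen were fits after removal of trends with transcript length and GC content (splines, 5 degrees of freedom, 99.4% of tested genes), with and without the block, and the counts without Psmc3ip.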

Additional observations from a re-analysis of the deposited data

Results flagged for a closer look

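In 7 of the 94 groups of 4 libraries that were examined, a single library stood apart from the other 3 by Dixon's criterion, where chance gives about 4.7. All 7 were genes that did not pass the comparison. In Nrp-1+ iTreg, Psma1 was at 125.2 FPKM in replicate 1 against 118.8 to 119.6 FPKM in the others, and Psmd8 at 142.2 FPKM in replicate 1 against 145.4 to 145.9 FPKM. Psmb3 was at 231.6 FPKM in replicate 2 against 244.0 to 246.1 FPKM. Replicate 4 was low for Psma5, at 80.4 FPKM against 89.8 to 91.4 FPKM, and for Psmd6, at 64.2 FPKM against 68.3 to 68.8 FPKM. In Nrp-1- iTreg, Psma3 was at 91.9 FPKM in replicate 1 against 95.9 to 96.5 FPKM, and Psma6 at 161.6 FPKM in replicate 4 against 145.3 to 146.3 FPKM.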

How the results depend on the processing

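Over the alternatives, 904 of 1006 log2 fold changes of 53 named genes kept their direction and their side of the threshold, 61 no longer passed, 16 newly passed and 25 changed sign, the last in 7 genes of which none passed. Proteasome genes called higher numbered 2 and called lower 2 after quantile normalization, against 7 and 4. Of the partner genes, 2 were higher and 3 lower after quantile normalization, and 2 were higher with no filter, against 4 and 5. Leaving out each library gave 4 to 7 proteasome genes higher and 2 to 5 lower, and 2 to 4 partner genes higher. Same-numbered libraries of the 2 subsets did not deviate together (correlations of -0.537 to 0.01 over all tested genes, -0.073 to 0.116 over proteasome genes), while differently numbered libraries ranged from -0.551 to 0.596 over all tested genes (Nrp-1+ replicate 3 with Nrp-1- replicates 1 and 4), so deviations were shared across the subsets but not by number, and the number was not taken as a pairing. With the replicate block, 5 proteasome genes were higher and 1 lower, and 3 partner genes were lower. Psmb1 (adjusted p = 0.101), Psmc1 (0.130), Psme1 (0.0682), Psme2 (0.0553) and Psmg2 (0.0670) did not pass with the block, nor did Psmb10 (0.0941), Rps27a (0.0749) and Uba6 (0.0504).

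The GC and length correction, chosen after seeing the data, gave 7 higher and 6 lower, adding Psma3 (adjusted p = 0.0204) and Psmd4 (0.0332), and 5 and 5 with the block. Under quantile normalization Psma4 turned to -0.0080, Psma6 to -0.021 and Psmd7 to -0.0082, and Psmd7 was at -0.0022 with the GC and length correction, with or without the block. With a library left out, log2 fold changes ran from -0.024 to 0.028 for Psma4, -0.0084 to 0.057 for Psma5, -0.011 to 0.040 for Psma6, -0.033 to 0.017 for Psmd6, -0.011 to 0.018 for Psmd7, -0.021 to 0.031 for Psme3 and -0.064 to 0.0068 for Psmf1. The causes were not tested. The median log2 fold change of the tested proteasome genes stayed between -0.0088 and 0.013. The read depth behind the FPKM values is unknown, so the counting error of Psma8 and Psmb11 could not be given.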
